A study of Mus musculus with 6 samples.

Results

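The genes that form, take up, remove and sense adenosine were examined in mouse hearts lacking 1 functional allele of the receptor kinase Grk2 (Adrbk1). Of 10 genes chosen for their role in adenosine handling, 7 had a probe set annotated to that gene alone, and these 17 probe sets, of 45037 in all, are described here: Nt5e, Entpd1, Slc29a1, Adk, Ada, Ampd3 and Adora3. The receptors Adora1, Adora2a and Adora2b were not analysed here. The genes were chosen by their role, with the log2 difference between the genotypes (GRK2+/- minus WT) in these same hearts already known, so that difference counts among the values behind the choice and is given as a description, without a test.

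Hearts came from mice aged 9 months in 2 groups of 3, with 1 Affymetrix array per heart. One group was heterozygous for the targeted allele (GRK2+/-, strain B6.129-Adrbk1tm1Mca/J, crossed back repeatedly onto C57BL/6J) and the other consisted of wild-type (WT) C57BL/6J littermates. The labels name no further treatment of either group, and the allele is a germline change present in all cells, not only in cardiomyocytes. The upper part of each heart was taken, so the RNA is that of mixed tissue. Sex is not given in the sources used here, and no probe set was annotated to Grk2, so that gene could not serve as a check of the labels. All 8 cardiomyocyte markers listed here as ventricular lay above the median of all probe sets (6.28 on the log2 scale). That list is not confined to genes of the ventricle, so its level does not tell ventricle from atrium. Of 6 atrial markers, 4, including Myl7 and Sln, lay below that median.

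Extracellular adenosine arises when ATP released by cells is stripped of its phosphates on the cell surface. Entpd1 (CD39) converts ATP and ADP to AMP, and Nt5e (CD73) converts AMP to adenosine. Adenosine then binds G protein-coupled receptors, of which Adora3 couples to inhibitory G proteins, or enters cells through the equilibrative transporter Slc29a1. Inside, Adk phosphorylates it back to AMP and Ada deaminates it to inosine, while Ampd3 deaminates AMP and so draws on the pool from which adenosine can form. In the heart adenosine slows the beat, widens coronary vessels and restrains the response to adrenergic stimulation.

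Both surface enzymes of adenosine formation had probe sets that were lower in GRK2+/- hearts, and their upstream sequences are shown because those members had the largest differences. The sequences are from RefSeq (GRCm38.p6), both genes lie on the plus strand, and each run holds the 250 bases before an annotated gene start. Nt5e has 1 listed start (chr9:88327359-88327608) and Entpd1 has an upstream start (chr19:40612116-40612365) and a downstream one (chr19:40659520-40659769). Capitals mark matches, on either strand, to the hypoxia response core ACGTG or GCGTG, the cyclic AMP response half-site TGACG or the GC box GGGCGG.
Nt5e: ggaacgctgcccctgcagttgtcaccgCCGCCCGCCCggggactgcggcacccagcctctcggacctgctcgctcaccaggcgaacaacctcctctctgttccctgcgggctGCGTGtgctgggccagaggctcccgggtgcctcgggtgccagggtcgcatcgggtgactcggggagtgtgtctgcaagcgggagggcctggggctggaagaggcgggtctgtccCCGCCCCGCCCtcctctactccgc
Entpd1 upstream start: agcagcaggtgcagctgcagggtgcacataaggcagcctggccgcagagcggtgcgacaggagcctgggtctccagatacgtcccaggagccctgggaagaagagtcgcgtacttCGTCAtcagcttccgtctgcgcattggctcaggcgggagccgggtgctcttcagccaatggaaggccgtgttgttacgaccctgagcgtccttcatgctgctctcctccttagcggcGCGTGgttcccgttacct
Entpd1 downstream start: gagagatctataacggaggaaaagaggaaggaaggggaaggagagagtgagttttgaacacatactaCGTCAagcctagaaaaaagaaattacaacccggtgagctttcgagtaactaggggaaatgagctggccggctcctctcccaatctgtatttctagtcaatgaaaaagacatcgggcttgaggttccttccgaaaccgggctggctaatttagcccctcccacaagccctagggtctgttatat

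The Nt5e window held 1 GCGTG and 4 GGGCGG matches, the latter in 2 overlapping pairs, and no TGACG. The upstream Entpd1 window held 1 GCGTG and 1 TGACG, and the downstream one held 1 TGACG alone. Such short motifs are common: over 32851 RefSeq windows of 300 bases (250 before and 50 after a start), 32.4% held GCGTG, 19.6% ACGTG, 20.8% TGACG and 35.7% GGGCGG. The full cyclic AMP response element TGACGTCA, which contains TGACG, occurred in 1.79% of all windows and in 0 of the 18 windows of the 7 measured genes. The GC content of the Nt5e window was 71%, against a median of 52.7% over all windows, and that of the Entpd1 windows was 64% and 48.7%. A match is a description of the letters and was not set against any binding data.

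Over the 17 probe sets, the differences (GRK2+/- minus WT, log2 scale) were below 0 in 11 and above 0 in 6, with a median of -0.03, and the median over all 45037 probe sets was -0.02. The 3 GRK2+/- values lay entirely outside the WT values for 5 of the 17, 4 lower and 1 higher. Over the whole array 17.9% of probe sets had no overlap between groups, 11.2% lower and 6.76% higher in GRK2+/- hearts, a split that became 7.62% and 9.40% once each array was centred on its median. The 5 without overlap were 2 of 3 probe sets for Nt5e, 1 of 3 for Entpd1, 1 of 2 for Adora3 and the single one for Ampd3. With each array centred on its median 4 were left, without that of Adora3, and 10 of the 17 differences were below 0 and 7 above. After quantile normalisation 3 were left, those of Nt5e and Entpd1, and without WT heart 2 there were 9. Over the whole array 0 of 45037 probe sets (0%) passed limma's adjusted p of 0.05, while 5780 (12.8%) had an unadjusted p under 0.05. Leaving out GRK2+/- heart 1, 2 or 3 turned that count of 0 into 41, 9 and 6, and a variance prior fitted as a trend on level turned it into 22.

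**Figure D1:**
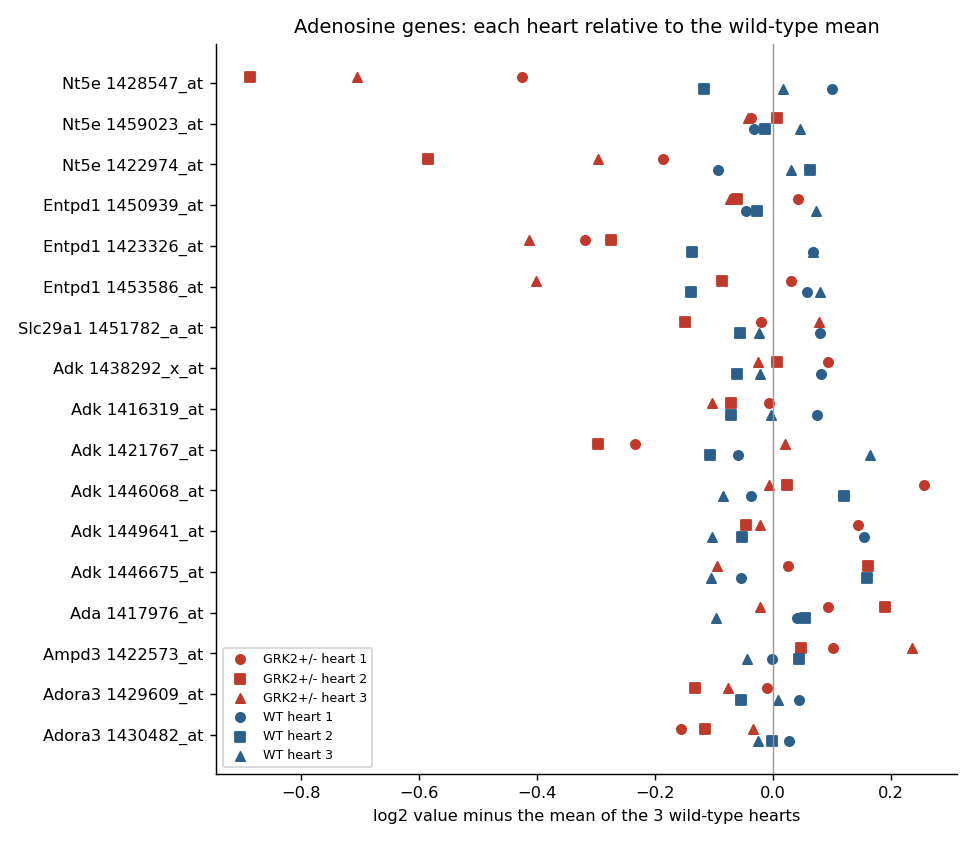
Each row is 1 probe set, and each point is 1 heart, as its log2 value minus the mean of the 3 WT hearts. GRK2+/- hearts (red) lie to the left of all WT hearts (blue) in 2 rows of Nt5e, in Entpd1 1423326_at and in Adora3 1430482_at, and to their right in Ampd3.

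Nt5e, which makes adenosine from AMP at the cell surface, showed the largest difference among these genes. Probe set 1428547_at read 7.70, 7.24 and 7.42 in GRK2+/- hearts 1, 2 and 3, and 8.23, 8.01 and 8.14 in WT hearts 1, 2 and 3 (log2 values). The highest GRK2+/- heart stood 0.31 below the lowest WT heart. The means were 7.45 ± 0.23 and 8.13 ± 0.11 (SD, n = 3 each), a difference of -0.67 ± 0.11 (limma SE), or a level 1.59-fold lower. Leaving out 1 heart at a time gave differences from -0.80 to -0.56.

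The probe set designed on the RefSeq transcript of Nt5e, 1422974_at, pointed the same way. It read 6.96, 6.56 and 6.85 in the GRK2+/- hearts and 7.05, 7.21 and 7.18 in the WT hearts. The groups did not overlap, but the gap of 0.09 was smaller than the spread among the GRK2+/- hearts. The means were 6.79 ± 0.21 and 7.14 ± 0.08 (SD, n = 3 each), a difference of -0.36 ± 0.10 (limma SE), and leaving out 1 heart gave -0.44 to -0.24. In both probe sets GRK2+/- heart 2 was the lowest of the 6 and GRK2+/- heart 1 the highest of its group, whereas the WT hearts were ordered differently in each.

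The third Nt5e probe set, 1459023_at, did not follow them. Its values were 7.53, 7.58 and 7.53 in GRK2+/- and 7.54, 7.55 and 7.61 in WT hearts, which overlapped, and the difference was -0.02 ± 0.07 (limma SE, n = 3 per group). It was also the steadiest of the 3, with an SD of 0.03 in GRK2+/- and 0.04 in WT hearts. Its groups no longer overlapped without GRK2+/- heart 2 (-0.04), and its sign turned once each array was centred on its median (0.005). With the mean of all 3 probe sets Nt5e differed by -0.35, so the size of the difference for the gene depended on which probe set was read.

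For Entpd1, which supplies Nt5e with AMP, 1 of 3 probe sets was lower without overlap and 2 overlapped. Probe set 1423326_at read 6.14, 6.18 and 6.04 in GRK2+/- hearts and 6.53, 6.32 and 6.53 in WT hearts. The highest GRK2+/- value stood 0.14 below the lowest WT value, which was that of heart 2. The means were 6.12 ± 0.07 and 6.46 ± 0.12 (SD, n = 3 each), a difference of -0.34 ± 0.08 (limma SE), or 1.26-fold lower, and leaving out 1 heart gave -0.40 to -0.30.

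Probe set 1450939_at of Entpd1, listed under the same source sequence as 1423326_at, read 6.49, 6.39 and 6.38 in GRK2+/- and 6.40, 6.42 and 6.52 in WT hearts. The groups overlapped, the difference was -0.03 ± 0.07 (limma SE, n = 3 per group), and its sign turned without WT heart 3 (0.01) and after quantile normalisation (0.003). Without GRK2+/- heart 1 the groups no longer overlapped, at -0.07. In probe set 1453586_at, with a mean below the median of all probe sets, the GRK2+/- hearts read 5.77, 5.65 and 5.34 and the WT hearts 5.80, 5.60 and 5.82. GRK2+/- heart 3 stood apart at the low end, the other 5 hearts overlapped, and the difference of -0.15 ± 0.11 was -0.03 without that heart. It was -0.24 without GRK2+/- heart 1 and -0.22, with no overlap, without WT heart 2. The mean of the 3 probe sets gave -0.17 for Entpd1.

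**Figure D2:**
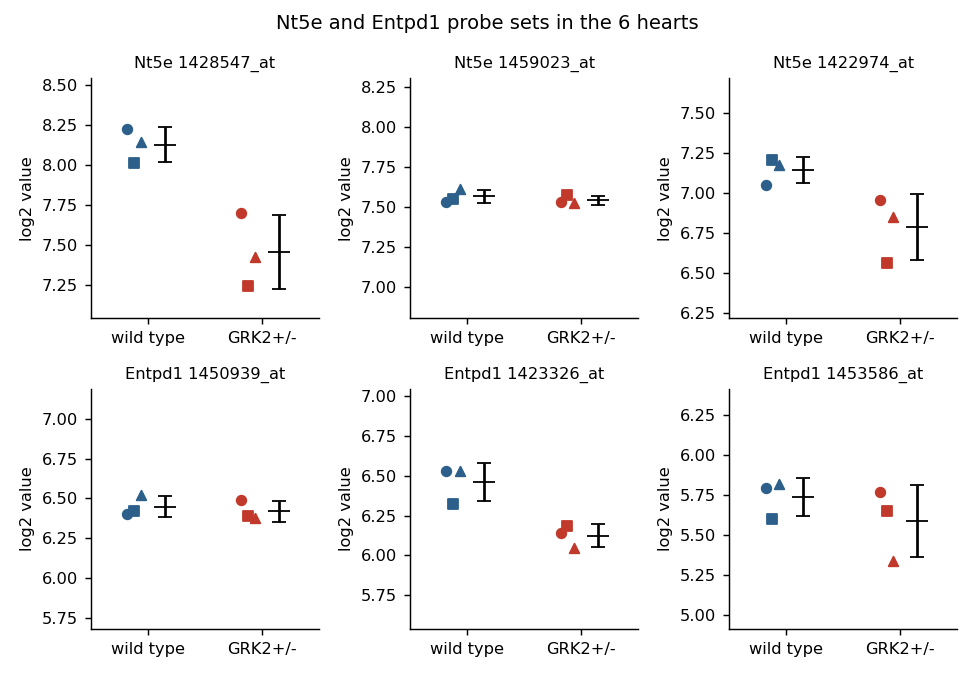
Log2 values of the 3 Nt5e and 3 Entpd1 probe sets by genotype, with circles, squares and triangles for hearts 1, 2 and 3 and bars for the mean and SD (n = 3). Every panel spans the same range of 1.5 log2 units, and the groups separate in Nt5e 1428547_at and 1422974_at and in Entpd1 1423326_at.

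Uptake and removal of adenosine showed small differences. Slc29a1, the equilibrative nucleoside transporter of the cell membrane, read 9.03, 8.90 and 9.12 in GRK2+/- and 9.13, 8.99 and 9.02 in WT hearts. The groups overlapped fully, with a difference of -0.03 ± 0.08 (limma SE, n = 3 per group) that was 0.03 without GRK2+/- heart 2, 0.01 without WT heart 1, -0.06 without WT heart 2 and -0.08 without GRK2+/- heart 3.

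Adk, the kinase that returns adenosine to AMP, had 6 probe sets, and the groups overlapped in all 6. The differences ran from -0.17 to 0.09. The 2 bright probe sets, 1438292_x_at and 1416319_at, lay in the top 3% of the array's scale and differed by 0.02 ± 0.07 and -0.06 ± 0.07 (limma SE, n = 3 per group). The first turned in sign without GRK2+/- heart 1 (-0.01) or WT heart 2 (-0.01), and the second was -0.10, with no overlap, without WT heart 2. The _x_at set can by its design also bind related sequences. Probe set 1421767_at, on the same RefSeq transcript as 1416319_at, had the widest spread, at 6.42, 6.35 and 6.67 in GRK2+/- and 6.59, 6.54 and 6.81 in WT hearts. In each group heart 3 was the highest, and the difference was -0.17 ± 0.10. It depended on single hearts: without GRK2+/- heart 3 it was -0.26 and the groups no longer overlapped, and without WT heart 3 it was -0.09 and without GRK2+/- heart 2 -0.11. The remaining 3 Adk probe sets, all below the median of all probe sets, differed by 0.03 to 0.09. Leaving out 1 heart gave 0.01 to 0.15 for 1446068_at, -0.03 to 0.10 for 1449641_at and -0.04 to 0.11 for 1446675_at. The groups separated, with GRK2+/- higher, for the first without WT heart 2 and for the second without WT heart 1.

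Ada, the deaminase that turns adenosine into inosine, was read by 1 probe set near the lower part of the scale, with 5.37, 5.47 and 5.26 in GRK2+/- and 5.32, 5.33 and 5.18 in WT hearts. The ranges overlapped, and the difference was 0.09 ± 0.08 (limma SE, n = 3 per group). It was 0.04 without GRK2+/- heart 2 or WT heart 3, and 0.14, with no overlap, without GRK2+/- heart 3. Ampd3, the AMP deaminase of red cells, also made in heart, was the 1 member whose values were all higher in GRK2+/- hearts, at 9.96, 9.91 and 10.09 against 9.86, 9.90 and 9.82. GRK2+/- heart 2 and WT heart 2 were almost level, and the groups were separated by 0.0024. The difference was 0.13 ± 0.07 (limma SE, n = 3 per group), or 1.09-fold, and it was 0.07 without GRK2+/- heart 3, and the groups overlapped after quantile normalisation.

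Adora3, the receptor known in mice for its action on mast cells, had 1 probe set near the median and 1 near the bottom of the scale. Probe set 1429609_at read 6.41, 6.29 and 6.35 in GRK2+/- and 6.47, 6.37 and 6.43 in WT hearts, with overlap and a difference of -0.07 ± 0.07 (limma SE, n = 3 per group). It was -0.04 without GRK2+/- heart 2, and the groups no longer overlapped without GRK2+/- heart 1 or without WT heart 2, at -0.10 each. Probe set 1430482_at read 4.30, 4.34 and 4.42 in GRK2+/- and 4.48, 4.45 and 4.43 in WT hearts, separated by 0.009, and differed by -0.10 ± 0.07. At the 9.94th percentile of the array's scale it carried little signal over background, and its groups overlapped once each array was centred on its median.

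**Figure D3:**
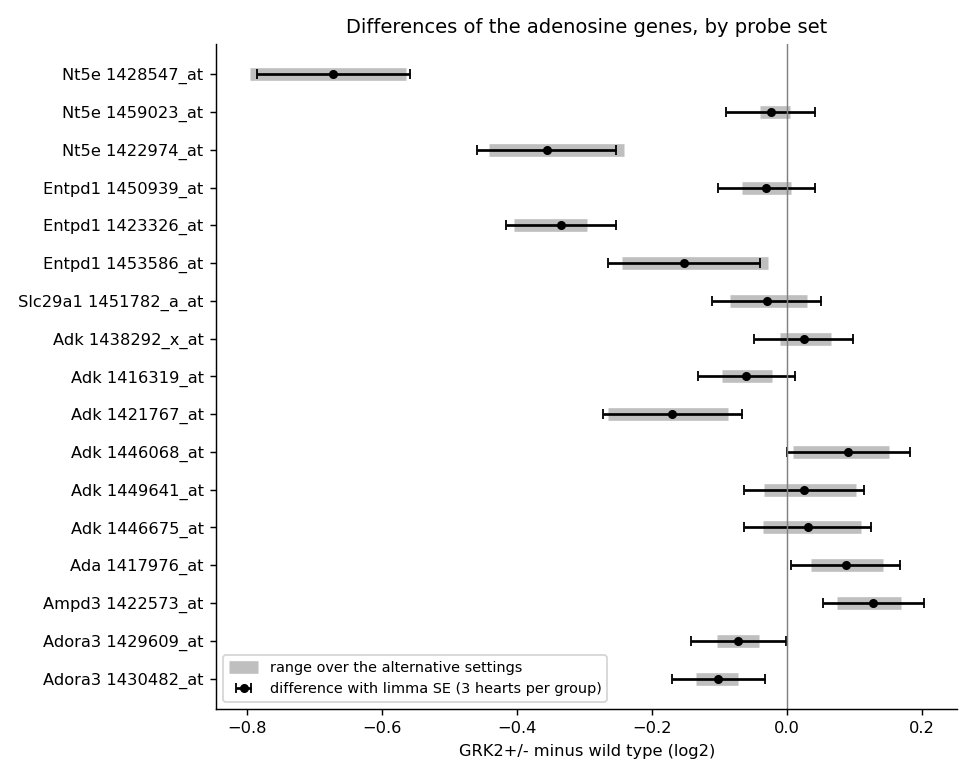
Difference between GRK2+/- and WT hearts for each of the 17 probe sets (log2), with limma's SE and, in grey, the range over the alternative settings, which include leaving out each heart. The ranges of Nt5e 1428547_at, Nt5e 1422974_at and Entpd1 1423326_at lie below -0.24, and 6 of the 17 ranges cross 0.

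Other genes of adenosine and nucleotide handling were read from lists drawn up by role, with earlier results of these data known: 69 genes, of which 60 were measured in a table of 18193 genes with 1 probe set each. Of the 60, 0 passed limma's adjusted p of 0.05, as did 0 of all genes (0%). At an unadjusted p under 0.05 there were 14 (23.3%), 11 lower and 3 higher in GRK2+/- hearts, and over all genes the share was 14%, with 7.7% lower and 6.3% higher. With each array centred on its median the split was 9 lower and 4 higher among the listed genes and 4.89% and 8.50% over all genes. The groups did not overlap for 15 of the 60 (25%), 12 lower and 3 higher, against 19.1% of all genes, 11.6% lower and 7.44% higher. The median difference over the 60 was -0.04, and over all genes -0.02.

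The enzymes that carry inosine on to urate were among the lower genes. Xdh, which makes urate from hypoxanthine, read 9.89, 9.51 and 9.67 in GRK2+/- and 10.20, 10.04 and 10.13 in WT hearts. Pnp, which makes hypoxanthine from inosine, read 9.11, 8.94 and 9.38 against 9.48, 9.52 and 9.54. Neither pair of groups overlapped. The differences were -0.43 ± 0.10 for Xdh (limma adjusted p = 0.148) and -0.36 ± 0.10 for Pnp (limma adjusted p = 0.205), with SE and n = 3 per group.

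Adssl1, the muscle enzyme of AMP synthesis from IMP, differed by -0.25 ± 0.07 (limma adjusted p = 0.227). In the list of 23 measured genes of intracellular AMP and adenosine metabolism that holds these 3, 5 were lower at an unadjusted p under 0.05 and 0 higher. Among all genes 7.7% were lower and 6.3% higher at that level, and the median of the list was -0.08. Of 10 measured genes of extracellular nucleotide hydrolysis, 2 were lower and 1 higher at that level. The lower ones were the phosphatases Acpp (-0.25 ± 0.08, limma adjusted p = 0.244) and Alpl (-0.21 ± 0.07, adjusted p = 0.257), and the higher one was Entpd5 (0.25 ± 0.09, adjusted p = 0.264), whose groups overlapped. Averaged over their probe sets, Acpp differed by -0.10 and Entpd5 by 0.11.

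Among 15 nucleotide receptors, 4 were lower and 0 higher at an unadjusted p under 0.05, against 7.7% and 6.3% of all genes. Without overlap 3 were lower and 0 higher, against 11.6% and 7.44% of all genes. The differences were below 0 for 8 and above 0 for 7, with a median of -0.004. The ATP-gated channel P2rx5 read 8.07, 8.01 and 8.08 in GRK2+/- and 8.42, 8.38 and 8.44 in WT hearts. The gap between the groups was far wider than the spread within either, and the difference was -0.36 ± 0.06 (SE, n = 3 per group; limma adjusted p = 0.0961), between -0.38 and -0.34 whichever heart was left out. The G protein-coupled receptors P2ry14 and P2ry4 differed by -0.24 ± 0.07 (limma adjusted p = 0.212) and -0.22 ± 0.07 (adjusted p = 0.231), the latter from a level near the median of all probe sets.

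Of the 4 measured further nucleoside transporters and the 6 genes of ATP and cyclic AMP export, 0 had an unadjusted p under 0.05 in limma or an adjusted p under 0.05. The smallest p among the transporters was that of Slc28a3, a concentrative transporter, at -0.17 ± 0.11 (limma adjusted p = 0.511), which was -0.04 without WT heart 3. Slc29a3 and Slc29a4 differed by -0.09 ± 0.11 and -0.04 ± 0.07, and the sign turned without WT heart 2 for the first and with its most variable probe set for the second. In the export list Abcc6 differed by -0.14 ± 0.08, Panx1 by 0.12 ± 0.12 and Panx2 by 0.06 ± 0.07. Leaving out GRK2+/- heart 1 gave -0.08 for Abcc6 and 0.10 for Panx2, leaving out WT heart 3 gave 0.01 for Panx1, without WT heart 2 Panx1 was 0.25, and Panx2 was 0.03 without GRK2+/- heart 2.

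Kcnj3 and Kcnj5, the subunits of the potassium channel that A1 receptors open in atrial and nodal cells, lay higher in all 3 GRK2+/- hearts than in any WT heart, with differences of 0.32 ± 0.09 (limma adjusted p = 0.201) and 0.27 ± 0.09 (limma adjusted p = 0.254). Of their probe sets 2 of 4 and 1 of 2 pointed that way, and the means of the probe sets gave 0.15 and 0.11. Kcnj3 was already known to differ in these data when it was listed. Beside them, 4 of the 6 atrial markers had differences above 0, with a median of 0.08. Without overlap 1 was higher (Myl7) and 1 lower (Nppa), against 7.44% and 11.6% of all genes. The list means lay between 6.71 and 6.89 in GRK2+/- and between 6.92 and 6.96 in WT hearts, and this lower mean came from Nppa, the atrial natriuretic peptide, at -1.20. Over the other 5 markers the ranges were 6.12 to 6.15 and 6.03 to 6.13, which overlapped. Without the 2 markers of largest difference they were 6.14 to 6.18 in GRK2+/- and 6.02 to 6.08 in WT hearts, without overlap.

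**Figure D4:**
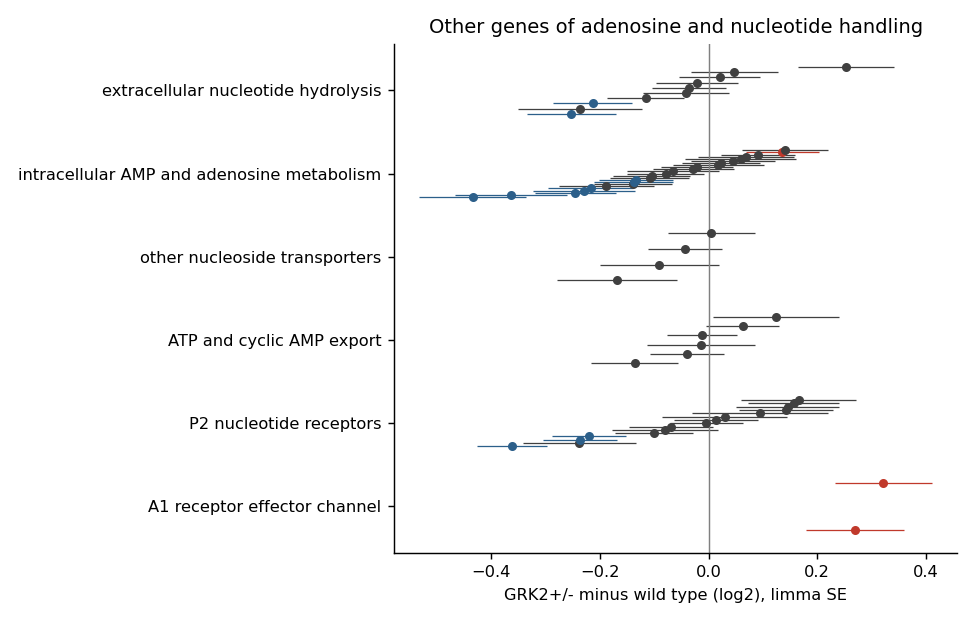
Differences (log2, with limma's SE) of the 60 measured genes of adenosine and nucleotide handling other than the members, by list. Genes whose groups do not overlap are blue where lower and red where higher in GRK2+/- hearts, 12 and 3 of the 60, and the others are grey.

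Nt5e and Entpd1 are made mainly by cells other than cardiomyocytes, among them fibroblasts, endothelium and leukocytes, and in whole tissue fewer cells of a type and less RNA per cell cannot be told apart. Among 11 measured lymphocyte markers 0 were without overlap, and the list mean lay between 6.03 and 6.07 in GRK2+/- and between 6.07 and 6.14 in WT hearts. For 12 endothelial markers the ranges were 9.09 to 9.23 and 8.98 to 9.12, with 2 higher and 3 lower without overlap. For 10 fibroblast markers they were 10.39 to 10.53 and 10.37 to 10.47, with 1 higher and 1 lower. For 10 macrophage and monocyte markers they were 8.85 to 8.91 and 8.85 to 8.94, with 2 higher and 3 lower. Over all genes 7.44% were higher and 11.6% lower without overlap. Differences were above 0 for 8 of the 12 endothelial markers (median 0.097) and for 7 of the 10 fibroblast markers (median 0.094). For macrophages and monocytes they were above 0 for 5 of 10 and below 0 for 5 (median -0.017). Of the 11 lymphocyte markers 8 had differences below 0 (median -0.075), and 5 lay below the median level of all probe sets. The lymphocyte ranges overlapped without Cd2, a surface receptor of T cells, at 6.07 to 6.13 against 6.12 to 6.15. Without the 2 markers of largest difference they were apart again, at 6.005 to 6.048 in GRK2+/- and 6.053 to 6.114 in WT hearts.

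In several other lists the mean of all markers stood apart between the groups, and in most of them this depended on which markers were counted. Of 7 epicardial and mesothelial markers 7 had differences above 0 (median 0.16) and 3 were higher without overlap, with list means of 6.19 to 6.28 in GRK2+/- and 5.95 to 6.08 in WT hearts. Without Wt1, the one of largest difference, they were 6.17 to 6.20 and 5.91 to 6.07, still apart. Of 10 smooth muscle and pericyte markers 8 were above 0 (median 0.19), 5 were higher without overlap and 0 lower, with list means of 9.68 to 9.85 and 9.57 to 9.65. Without Myh11, the smooth muscle myosin, these ranges overlapped, at 9.83 to 10.03 and 9.76 to 9.84. Of 10 listed neutrophil markers 8 were measured, and 5 of these were below 0 (median -0.04). Without overlap 2 were higher, S100a8 and S100a9, at 1.97 and 2.25, and 1 was lower, Mpo, at -0.39. Mpo was among 3 of the 8 that lay below the median level of all probe sets. The neutrophil list means of 6.84 to 7.15 and 6.47 to 6.65 came from the 2 S100 genes, and over the other 6 markers the ranges were 6.11 to 6.25 and 6.15 to 6.35, which overlapped. Of 8 cardiomyocyte markers listed as ventricular 5 were below 0 (median -0.004), and only Ryr2, the calcium release channel, was without overlap, at 0.35. Without it the ventricular list means were 14.83 to 14.84 in both groups. Without the 2 markers of largest difference they were 14.8229 to 14.8267 in GRK2+/- and 14.8295 to 14.8406 in WT hearts, without overlap.

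The 6 erythroid and platelet markers, set here beside Ampd3, which red cells also make, ranged from 7.62 to 7.68 and from 7.44 to 7.70, with 2 higher and 1 lower without overlap. Of 7 mast cell markers, beside Adora3, 6 lay below the median of all probe sets, with list means of 5.48 to 5.68 and 5.46 to 5.59 and 0 higher and 1 lower. Of 6 adipocyte markers 0 were without overlap, with list means of 6.00 to 6.05 and 6.03 to 6.11. The part of these cell types in the differences above was not tested.

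**Figure D5:**
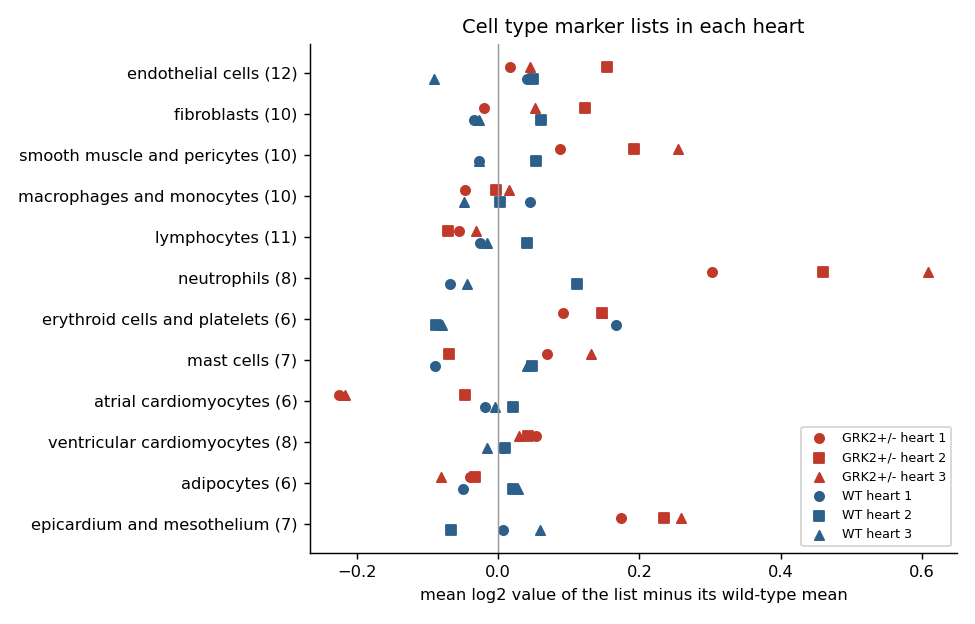
Mean log2 value of each cell type marker list in each heart, relative to the mean of the 3 WT hearts, with the number of measured markers in parentheses. GRK2+/- hearts (red) lie to the right of the WT hearts (blue) for smooth muscle and pericytes, neutrophils, ventricular cardiomyocytes and epicardium and to their left for lymphocytes and atrial cardiomyocytes, and the groups overlap for the other 6 lists. Without S100a8 and S100a9 the groups overlap for neutrophils. They also overlap without Ryr2 (ventricular), Myh11 (smooth muscle), Cd2 (lymphocytes) or Nppa (atrial, where 4 of 6 markers were higher). Without the 2 markers of largest difference the lymphocyte and ventricular lists are lower, and the atrial list higher, in GRK2+/- hearts without overlap.

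Array medians lay between 6.25 and 6.31, and correlations between arrays over all probe sets were 0.99625 to 0.99664 within a group and 0.99358 to 0.99673 between groups. RNA integrity was read from control probe sets at both ends of a transcript. For beta-actin the 3′ set exceeded the 5′ set by 0.90, 1.06 and 0.97 in GRK2+/- and 0.80, 0.80 and 0.73 in WT hearts, without overlap. For Gapdh the excess lay between 0.01 and 0.04 in GRK2+/- and between -0.03 and 0.05 in WT hearts. GRK2+/- heart 2, with the largest actin difference, also had the lowest values of Nt5e 1428547_at and 1422974_at, and the part of RNA quality in those values was not tested.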

How the data were processed

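Total RNA from 6 hearts was labelled and hybridised to 1 Affymetrix array each, per the labels' protocols. The authors deposited log2 values. The submitters' processing notes name RMA and limma without versions, and do not say whether the arrays were normalised as 1 batch. RMA corrects background and summarises the probes of a set, so values near the bottom of the scale (3.44 to 15.1 overall) carry little signal. Of 45101 probe sets, 64 controls were left out. Of the 45037 tested, 34945 had 1 gene symbol, 932 had several and 9160 had none; symbols were updated through RefSeq (GRCm38.p6). The gene table took the probe set with the highest mean per gene.

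Differences and SE are from limma 3.58.1 (R 4.3.3; lmFit and eBayes, two-sided) across all probe sets or genes, with Benjamini-Hochberg adjustment and a threshold of 0.05. The fit was run on simulated data with known differences and independent noise. That simulation held no array effects or RNA quality differences, so it does not bear on them. The smallest two-sided p that an exact permutation test of 3 hearts against 3 allows is 0.1. Summaries used Python 3.11.15. Alternatives were scaling, a filter on dim probe sets, variance priors, array weights, the replicate block, other probe sets per gene and leaving out each heart. List means without their 1 or 2 markers of largest difference were added after the data had been seen. All members were named, and in each pathway list the 3 genes with the smallest p; S100a8 and S100a9, the atrial markers Myl7, Sln and Nppa, and Mpo, Ryr2, Myh11, Wt1 and Cd2, were named after their values had been seen. The members and lists were chosen with earlier results of these data known. Hearts of one number are not stated to be paired. The number of arrays limits the precision.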

Additional observations from a re-analysis of the deposited data

How the results depend on the processing

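The direction of Nt5e 1428547_at, Nt5e 1422974_at and Entpd1 1423326_at, and their lack of overlap between groups, held under median centring and quantile normalisation. The filter left their values unchanged, and leaving out a heart cannot make separate groups overlap, so these settings could not alter the separation. Over the settings run, their differences ranged from -0.80 to -0.56, from -0.44 to -0.24 and from -0.40 to -0.30. The count of member probe sets without overlap was 5 as deposited, 4 under median centring and 3 after quantile normalisation. With the filter on dim probe sets it was 4 of the 11 members left. It was 5 to 9 when 1 heart was left out, where fewer hearts make separation easier by construction. The count of probe sets past the threshold was 0 as deposited, 22 with a trend in the variance prior and 0 to 41 when 1 heart was left out. The pathway genes past the threshold numbered 0 in every alternative, and those at an unadjusted p under 0.05 numbered 11 to 18, against 14. With the replicate number as a block there were 0 probe sets and 0 pathway genes past the threshold, as without it. At an unadjusted p under 0.05 there were 13 pathway genes with the block, against 14 without it. The deviations of same-numbered hearts from their group means had correlations of -0.14, -0.02 and 0.01. From these values it cannot be told whether hearts of one number were paired. The causes were not tested. Levels below the median of all probe sets limit Ada, Adora3 1430482_at, Entpd1 1453586_at and 3 of the Adk probe sets. Entpd1 1423326_at lay barely above that median, at a mean of 6.29 against 6.28, and its GRK2+/- mean of 6.12 lay below it.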
